A study of Homo sapiens with 4 samples.

Results

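The TNF superfamily was examined in ES2 cells, an established human ovarian cancer cell line, treated for 24 h with vehicle or with liquiritigenin (Liq), a plant flavanone that the study uses as an agonist of estrogen receptor β. The genes were chosen by symbol, as every gene listed as TNFSF or TNFRSF followed by a number together with TNF, LTA, LTB, LTBR, FAS, FASLG, CD27, CD70, CD40, CD40LG, NGFR and EDAR. This gave 45 of the 23228 genes in the count tables, 18 ligands and 27 receptors, by a rule that uses no measured value. Each group held 2 samples of this 1 line, all grown without phenol red and in charcoal-treated serum, and only the agent differed. The labels do not say whether the 2 samples of a group were separate cultures, so the p-values measure the spread between these samples, which may be technical.

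The TNF superfamily pairs small trimeric ligands, mostly made as membrane proteins and shed by proteases, with receptors that carry cysteine-rich repeats outside the cell. Receptors with a cytoplasmic death domain recruit adaptors such as FADD and TRADD and can start caspase activation. Most others bind TRAF adaptors, and receptors of both kinds can feed NF-κB and MAP kinase signaling. Decoy receptors bind ligand but lack a working death domain or a membrane anchor. In epithelial tumors the family is best known through FAS and the TRAIL receptors, which can trigger apoptosis, and through TNF and TWEAK, which drive inflammatory gene expression.

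Each sample had 34573053 to 48933893 reads counted on genes, and 35.6% to 36.2% of all tallied reads were set aside by the counting for aligning to several places. Levels are given in CPM, the count divided by the library size after TMM scaling, and 3 counts, taken as the smallest level that the depth can show, corresponded to 0.0598 to 0.0844 CPM. The 2 samples of each group differed by more than sampling noise (chi-square per degree of freedom of 6.49 for vehicle and 11.6 for Liq), and all 4 were kept. KRT7, KRT8 and KRT18, keratins of simple epithelia, and VIM, an intermediate filament of mesenchymal cells, were expressed, while EPCAM, KRT19 and MUC16 had at most 3 counts in any sample and CDH1 and MSLN had 0 in all 4. Several markers also moved by the test. KRT7 (log2 fold change 0.51) and the mesenchymal markers PDGFRB (0.97), THY1 (0.56) and COL1A1 (0.17) were higher. KRT18 (-0.24), VIM (-0.28), the ovarian carcinoma markers PAX8 (-1.34) and WT1 (-0.68) and the endothelial marker KDR (-0.79) were lower. KRT8 and the endothelial marker CDH5 (44.6 to 52.9 CPM) did not pass. Of the leukocyte markers, CD3E and MS4A1 had 0 counts in every sample and PTPRC had 1 count in 1 sample, but CSF1R had 36 and 27 counts in vehicle and 12 and 15 with Liq, and LYZ 23 and 15 and then 8 and 9. ESR2, which encodes estrogen receptor β, had 4 and 7 counts in vehicle and 5 and 14 with Liq and was below the filter on low counts.

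Of the 45 genes, 22 passed the filter on low counts and were tested, 15 had some reads but too few for the test, and 8 had 0 counts in all 4 samples. Receptors predominated, since 16 of 27 receptors but 6 of 18 ligands were tested, and ligands made up only 2.27% to 2.44% of the reads counted on the family. The family took 0.0760% to 0.0796% of the reads on genes in each sample. With edgeR's quasi-likelihood test, 6 genes were lower with Liq at a Benjamini-Hochberg adjusted p-value under 0.05 (TNFSF15, FASLG, NGFR, TNFRSF10D, TNFRSF12A and TNFRSF19) and 2 were higher (TNFRSF1A and TNFSF4). In such bulk samples, fewer cells that express a gene and less RNA per cell cannot be told apart. These are 27.3% and 9.09% of the tested members, beside 11.3% lower and 12.6% higher among the 13546 genes tested. A change of at least 1.5-fold was reached by TNFSF15 and NGFR, both lower, which is 9.09% of the members beside 2.16% of all tested genes. TNFSF15 passed the filter on low counts only through the vehicle samples, and with a filter at a mean of 1 CPM the count was 1, so nothing is read from this share. None rose by that much (0 at the adjusted and 0 at the unadjusted p-value with edgeR, and 0 with DESeq2), beside 4.29% of all tested genes. The median log2 fold change was 0.0402 over the tested members and 0.00619 over all tested genes, with 13 members above and 9 below 0. The members' median was -0.0199 with loess offsets and between 0.0175 and 0.0831 with 1 sample left out, down to 0.0175 without vehicle replicate 1 and 0.0183 without vehicle replicate 2 and up to 0.0824 without Liq replicate 1 and 0.0831 without Liq replicate 2. For 1 gene alone an exact permutation test of these 4 samples cannot go below p = 0.333 (two-sided), and edgeR's p-values draw on a spread estimated over all genes.

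**Figure D1:**
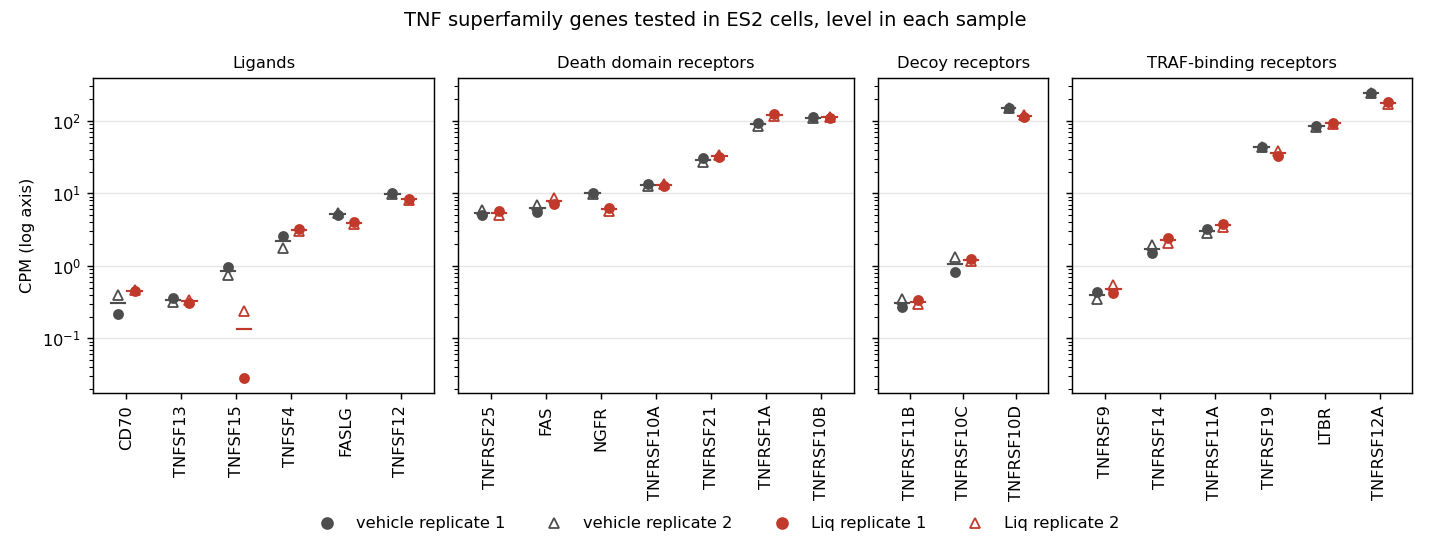
Level of each of the 22 tested TNF superfamily genes in CPM (log axis), grouped by role, with 1 point per sample (2 vehicle and 2 Liq) and a short line at each group mean. The Liq samples of TNFSF15 and NGFR lay below both of their vehicle samples.

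**Figure D2:**
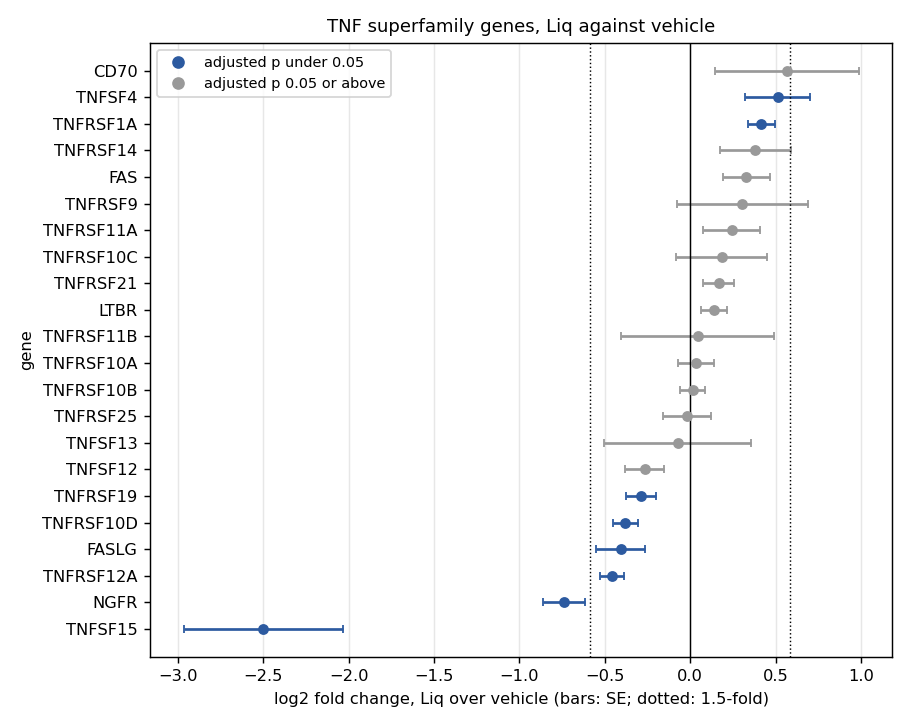
Log2 fold change of Liq over vehicle for the 22 tested genes, with bars of 1 SE on each side, a solid line at 0 and dotted lines at 1.5-fold. The 8 genes in blue had an adjusted p-value under 0.05, and TNFSF15 lay farthest from 0.

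Across the family, levels can be compared only after division by transcript length, here as reads per kilobase of the canonical transcript, scaled to library size (RPKM). On this scale TNFRSF12A, the receptor of TWEAK also called Fn14, was far above every other member, at 251 and 245 RPKM in the vehicle samples and 187 and 174 RPKM in the Liq samples. Next in vehicle came the TRAIL decoy TNFRSF10D (42.9 and 42.7 RPKM), the TNF receptor TNFRSF1A (43.6 and 39.5 RPKM) and the lymphotoxin β receptor LTBR (39.8 and 38.7 RPKM). In vehicle the samples of TNFRSF1A overlapped those of both neighbours, while TNFRSF10D was above LTBR in both. In Liq the 3 separated, with TNFRSF1A at 57.1 and 53.8, LTBR at 44 and 42.5 and TNFRSF10D at 31.7 and 34.1 RPKM. The TRAIL receptor TNFRSF10B followed in vehicle, at 27.9 and 27.8 RPKM. The highest ligand per length was TNFSF12, with group means of 7.24 RPKM in vehicle and 6.03 RPKM in Liq. Its count is uncertain, as it shares exons with a read-through gene.

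Among the ligands, TNFSF15 showed the largest difference of the family. It encodes TL1A, the ligand of the death domain receptor TNFRSF25. It lies on chromosome 9 from 117546932 to 117568319 (GRCh37), on the minus strand. TNFSF15 had 40 and 28 counts in vehicle and 1 and 12 with Liq, or 0.973, 0.748, 0.0281 and 0.239 CPM. Both Liq samples lay below both vehicle samples, but they differed from each other by 12 counts against 1, and the gene passed the filter through the vehicle group. In edgeR the difference was -2.50 on the log2 scale (SE 0.47) and its adjusted p 0.0002777. Its size rested on which Liq sample was used, since it was -1.84 without Liq replicate 1 and -4.79 without Liq replicate 2. TNFSF15 stayed past the threshold in all 10 alternatives that could fit it. Its receptor TNFRSF25 did not separate the groups, at 4.99 and 5.90 CPM in vehicle and 5.71 and 5.06 CPM in Liq (adjusted p = 0.9348, 95% interval of the log2 difference -0.30 to 0.26).

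FASLG, the ligand of FAS and a gene mainly known from cytotoxic lymphocytes, was read at 209 and 200 counts in vehicle and 145 and 191 counts in Liq. It lies on chromosome 1 from 172628243 to 172636016 (GRCh37, plus strand), and the annotation places no exon of another gene over its exons. After scaling these were 5.08 and 5.34 CPM in vehicle and 4.08 and 3.81 CPM in Liq, so both Liq samples were lower and the groups did not overlap. Per length, FAS stood to FASLG at 0.775 and 0.912 in vehicle and at 1.22 and 1.58 in Liq. The edgeR estimate was -0.41 on the log2 scale (SE 0.14), adjusted p = 0.04035. The adjusted p-value was 0.1842 with DESeq2 and 0.0607 with upper-quartile scaling, and the call was also lost without vehicle replicate 1 (0.1456), vehicle replicate 2 (0.2257) or Liq replicate 2 (0.1243). The summed level of the 10 leukocyte markers was 1.42 to 1.73 CPM in vehicle and 0.697 to 1.15 CPM in Liq. CSF1R and LYZ were lower by the test, LYZ having passed the filter on low counts only through the vehicle samples. Of the 10, 5 had at most 3 counts in any sample. Among the others, CD4 and CD14 had higher means with Liq and CD8A a lower one, all below the filter. The part of these markers in the FASLG difference was not tested. The receptor FAS moved the other way without passing the test, from 5.59 and 6.92 CPM to 7.06 and 8.53 CPM (log2 fold change 0.33, SE 0.14, adjusted p = 0.08008). The log2 fold change of FAS was 0.45 without Liq replicate 1 and 0.18 without Liq replicate 2. Exons annotated for ACTA2 lie opposite those of FAS, and ACTA2 was itself higher with Liq (log2 fold change 0.85, edgeR adjusted p = 0.000111). Its part in the FAS difference was not tested.

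TNFSF4, which encodes OX40 ligand, a costimulator of T cells, was the only ligand past the test in the upward direction. It had 105 and 67 counts in vehicle and 116 and 150 counts in Liq, or 2.55, 1.79, 3.26 and 2.99 CPM. The Liq samples were the higher ones and the groups did not overlap, but the vehicle samples differed from each other by more than the Liq samples did. edgeR gave a log2 fold change of 0.51 (SE 0.19) at an adjusted p of 0.04958, just inside the threshold. The adjusted p-value was 0.05017 both with the size factors of DESeq2 and with a filter at a mean of 1 CPM, 0.2265 with DESeq2, 0.2148 with loess offsets, 0.488 without vehicle replicate 2 and 0.104 without Liq replicate 1. Its receptor TNFRSF4 (OX40) had 1 count in 1 vehicle sample and 0 in the others.

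The other tested ligands did not pass. TNFSF12, or TWEAK, was at 10.2 and 9.72 CPM in vehicle and 8.46 and 8.13 CPM in Liq (log2 fold change -0.27, SE 0.11, adjusted p = 0.0918), with both Liq samples lower. With loess offsets it passed (adjusted p = 0.03032). TNFSF12 and TNFSF13 share exons with the read-through gene TNFSF12-TNFSF13, which had 0 counts, and HTSeq in its usual mode gives reads over a shared exon to no gene, so their counts are uncertain. TNFSF13, or APRIL, which acts on B cells and plasma cells, had 11 to 17 counts per sample (adjusted p = 0.9213, 95% interval of the log2 difference -0.91 to 0.76). CD70, the ligand of CD27, had 9 and 15 counts in vehicle and 16 and 23 in Liq (log2 fold change 0.57, SE 0.42, adjusted p = 0.3504), while CD27 itself had at most 4 counts in any sample.

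TNF was hardly read at all, with 0 counts in both vehicle samples and 2 and 0 counts with Liq. The other ligands that signal through the TNF receptors and LTBR were also near the floor. LTA had 10, 6, 4 and 12 counts and LTB had 0, 10, 2 and 4 counts in vehicle replicates 1 and 2 and Liq replicates 1 and 2. LTB therefore differed more within vehicle than between the groups. TNFSF10, which encodes TRAIL, had 3 counts in Liq replicate 2 and 0 elsewhere, and TNFSF11, which encodes RANKL, had 2 counts in vehicle replicate 1 and 0 elsewhere. TNFSF9, the ligand of 4-1BB, had 4 to 9 counts and TNFSF18, the ligand of GITR, 1 to 6. CD40LG, TNFSF8 (CD30 ligand) and TNFSF14 (LIGHT) had 0 counts in all 4 samples, which allows up to 0.0598 to 0.0844 CPM in a sample by counting error alone. At these counts a fall, or a small rise, was not detectable.

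Among the death domain receptors, 1 rose, 1 fell and 5 of the 7 tested did not pass. TNFRSF1A, the receptor through which soluble TNF mainly acts, rose from 94.7 and 85.6 CPM in vehicle to 124 and 117 CPM in Liq. Both Liq samples lay above both vehicle samples, by more than either group's spread (90.2 ± 6.4 and 120.4 ± 5.1 CPM, SD, n = 2). In edgeR the difference was 0.42 on the log2 scale (SE 0.08) and its adjusted p 0.0002726, a fold of 1.34, and it stayed past the threshold in all 11 alternatives. TNFRSF1A lies on chromosome 12 from 6437923 to 6451280 (GRCh37, minus strand). TNFRSF1B, the other TNF receptor, had 0 counts in all 4 samples.

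NGFR, the low-affinity neurotrophin receptor p75 and the member with the largest difference among the well-covered genes, fell from 10.2 and 9.88 CPM to 6.38 and 5.70 CPM. Its counts were 419 and 370 in vehicle and 227 and 286 in Liq, and the groups lay well apart. The edgeR estimate was -0.74 on the log2 scale (SE 0.12), adjusted p = 6.475e-05, and it was between -0.835 and -0.654 in the 11 alternatives, past the threshold in each. NGFR lies on chromosome 17 from 47572655 to 47592370 (GRCh37, plus strand), where antisense transcripts including NGFR-AS1 overlap its exons. Exons on the other strand also overlap those of TNFRSF10A, TNFRSF10B, TNFRSF14, TNFRSF25 and LTBR, as well as CFLAR, MAP3K14 and TNFAIP3 among the signaling genes. Whether the reads were counted by strand is not given in the sources used here, so reads of these overlaps cannot be told apart.

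TNFRSF10A and TNFRSF10B, the TRAIL receptors with a full death domain, had overlapping groups. TNFRSF10B had 112 and 111 CPM in vehicle and 111 and 114 CPM in Liq (95% interval of the log2 difference -0.13 to 0.16), and TNFRSF10A had 13.4 and 12.5 CPM and 12.8 and 13.7 CPM (-0.17 to 0.24). Neither passed the test (adjusted p = 0.9113 and 0.8393). TNFRSF21, or DR6, was at 30.9 and 27.5 CPM in vehicle and 32.0 and 33.5 CPM in Liq and did not pass either (adjusted p = 0.1965). EDAR, the receptor of ectodysplasin, had 0 counts in all 4 samples.

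The TRAIL decoy TNFRSF10D, whose death domain is truncated, fell from 152 and 151 CPM in vehicle to 112 and 120 CPM in Liq. The vehicle samples were nearly equal and both Liq samples were lower (151.3 ± 0.4 and 116.2 ± 5.9 CPM, SD, n = 2). edgeR gave a log2 fold change of -0.38 (SE 0.07) at an adjusted p of 0.0003878, a fold of 0.769, and it passed in all 11 alternatives. Per length, TNFRSF10B stood to TNFRSF10D at 0.652 and 0.650 in the vehicle samples and at 0.879 and 0.834 in the Liq samples. With TNFRSF10A and the GPI-anchored decoy TNFRSF10C added, the ratio of death domain receptors to decoys was 0.757 and 0.743 in vehicle and 1.00 and 0.960 in Liq. These ratios are a description without a test, and they follow from the values of the single genes given here. TNFRSF10C itself was scarce, with 34 and 49 counts in vehicle and 45 and 58 in Liq (adjusted p = 0.6606). The 4 TRAIL receptor genes lie in 1 cluster and resemble each other, and reads that align to more than 1 place were not counted.

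The remaining decoys were near the floor. TNFRSF11B, which encodes osteoprotegerin, a soluble decoy for RANKL and TRAIL, had 11 to 15 counts per sample (adjusted p = 0.9552, 95% interval of the log2 difference -0.83 to 0.92). TNFRSF6B, or DcR3, a soluble decoy for FAS ligand, LIGHT and TL1A, had 11 and 8 counts in vehicle and 7 and 9 in Liq and was below the filter. Its exons are shared with the read-through gene RTEL1-TNFRSF6B.

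Among receptors that bind TRAF adaptors, 2 of the 6 tested fell and the other 4 did not pass. TNFRSF12A had 10065 and 8970 counts in vehicle and 6499 and 8510 counts in Liq, or 245, 240, 183 and 170 CPM. The Liq samples were the lower ones and the groups stood apart by more than their spread (242.2 ± 3.7 and 176.2 ± 9.3 CPM, SD, n = 2). In edgeR the difference was -0.46 on the log2 scale (SE 0.07) and its adjusted p 2.245e-05, a fold of 0.727. It was between -0.515 and -0.385 in the 11 alternatives and passed in each. TNFRSF12A lies on chromosome 16 from 3068446 to 3072384 (GRCh37, plus strand), and exons of CLDN6 on the other strand overlap its own. Per length, the receptor stood at 33.8 and 34.7 times its ligand TNFSF12 in vehicle and 30.4 and 29.4 times in Liq. The count of TNFSF12 is uncertain because of its shared exons, and so are these ratios.

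TNFRSF19, or TROY, a receptor known from neural and epithelial progenitors, fell from 43.1 and 44.3 CPM in vehicle to 33.2 and 38.3 CPM in Liq. Both Liq samples were lower, at -0.29 on the log2 scale (SE 0.09, edgeR adjusted p = 0.02034), a fold of 0.82. The call was lost without vehicle replicate 1 (adjusted p = 0.1287), vehicle replicate 2 (0.1924) or Liq replicate 1 (0.1222). LTBR, which feeds the non-canonical NF-κB pathway, was at 85.0 and 82.7 CPM in vehicle and 93.9 and 90.6 CPM in Liq and did not pass (log2 fold change 0.14, adjusted p = 0.1903). TNFRSF11A, the receptor RANK, was at 3.26 and 2.83 CPM and 3.82 and 3.43 CPM (adjusted p = 0.304), and TNFRSF14, or HVEM, at 1.48 and 1.95 CPM and 2.42 and 2.07 CPM (adjusted p = 0.1885). For these 3 receptors both Liq samples were higher, yet the difference did not pass the test. TNFRSF9, or 4-1BB, had 13 to 27 counts per sample and overlapping groups (adjusted p = 0.6041).

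The lymphocyte receptors of this class were largely unread. CD40, TNFRSF13B (TACI) and TNFRSF1B had 0 counts in all 4 samples, and CD27, TNFRSF4, TNFRSF8 (CD30), TNFRSF17 (BCMA) and TNFRSF18 (GITR) had at most 7 counts in any sample. TNFRSF13C, the BAFF receptor, had 1 count in each vehicle sample and 5 and 10 counts in the Liq samples, while its ligand TNFSF13B had 8 and 4 counts and 5 and 12 counts. Both fell below the filter. Without a filter on low counts the 15 members with too few reads could also be fitted, and 0 of them passed at the adjusted p-value (edgeR), while 1, TNFRSF13C, had an unadjusted p-value under 0.05 (0.02199, adjusted p = 0.09178).

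**Figure D3:**
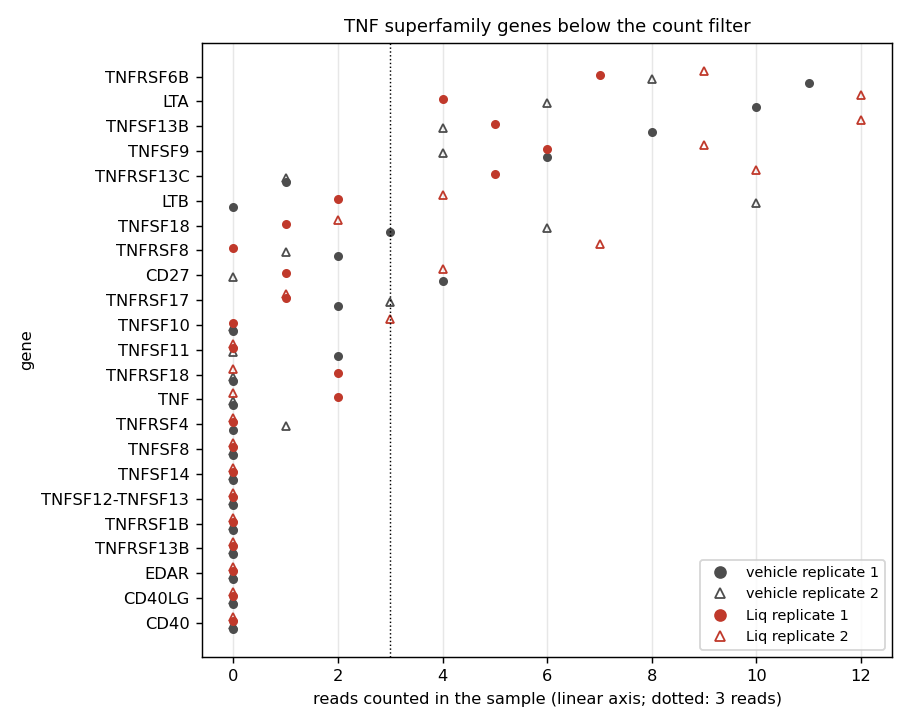
Reads counted in each of the 4 samples for the 23 TNF superfamily genes below the filter on low counts (linear axis), with a dotted line at 3 reads. No gene exceeded 12 reads in any sample, and 8 genes stood at 0 in all 4.

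Downstream of the receptors, 38 genes of TNF receptor signaling were listed, of which 37 were in the tables and 35 were tested. With Liq 7 were lower and 2 higher at an adjusted p-value under 0.05, or 20% and 5.71%, beside 11.3% and 12.6% of all tested genes, and the median log2 fold change was 0.0249. The list was written by hand from textbook knowledge, with earlier results of these data known, so nothing is read from these shares. In the death arm 4 of the 9 tested genes were lower and the other 5 did not pass. MLKL, the executor of necroptosis, fell from 23.9 and 25.1 CPM in vehicle to 12.6 and 12.9 CPM in Liq. Its difference of -0.94 on the log2 scale (SE 0.10, edgeR adjusted p = 6.441e-08) was the largest of the 35, a fold of 0.52. RIPK3, the kinase that acts on MLKL, had 0 counts in all 4 samples. CFLAR, which encodes the caspase-8 inhibitor FLIP, fell from 40.3 and 43.9 CPM to 33.4 and 32.7 CPM (log2 fold change -0.35, adjusted p = 0.004795). EDARADD, the adaptor of EDAR, and DAXX were also lower (log2 fold changes -0.21 and -0.22, adjusted p = 0.02305 and 0.03006). CASP8, FADD and RIPK1 did not pass (adjusted p = 0.1636, 0.2632 and 0.6794), nor did TRADD and CASP10 (0.4344 and 0.8099).

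In the TRAF and ubiquitin arm, 3 of the 15 tested genes were lower and the other 12 did not pass. BIRC3, a ubiquitin ligase recruited to TNF receptors, fell from 19.1 and 18.5 CPM to 11 and 12.9 CPM (log2 fold change -0.65, SE 0.11, edgeR adjusted p = 5.282e-05), while its relative BIRC2 was at 279 and 300 CPM in vehicle and 267 and 303 CPM in Liq. TNFAIP3, which encodes the deubiquitinase A20, fell from 26.6 and 27.9 CPM to 21.7 and 19.8 CPM (log2 fold change -0.39, adjusted p = 0.003495), and TRAF3IP2 was lower by less (log2 fold change -0.26, adjusted p = 0.04222). TRAF1 had the largest positive value of the list (log2 fold change 0.44, SE 0.23) but did not pass (adjusted p = 0.1715), and neither did TRAF5 or SHARPIN (adjusted p = 0.1094 and 0.1962). Of the 11 kinases and sheddases, 2 were higher and the other 9 did not pass. MAP3K14, the kinase NIK of the non-canonical pathway, rose from 50.1 and 50.5 CPM to 66.3 and 59.4 CPM (log2 fold change 0.32, adjusted p = 0.005643). ADAM17, the protease that sheds TNF and several TNF receptors, rose from 42.0 and 42.2 CPM to 49.2 and 53.6 CPM (log2 fold change 0.29, adjusted p = 0.01306). IKBKG, CHUK and IKBKB did not pass (adjusted p = 0.06004, 0.5265 and 0.1619). With every sample kept, the edgeR call of EDARADD was lost with loess offsets (adjusted p = 0.1689). That of DAXX was lost with loess offsets (0.1139) and with upper-quartile scaling (0.06045). That of TRAF3IP2 was lost with upper-quartile scaling (0.07112) and with the DESeq2 test (0.07094). MLKL and BIRC3 passed whichever sample was left out. Without vehicle replicate 2 the other 7 calls were lost (adjusted p = 0.07421 to 0.2349), and without vehicle replicate 1 those of MAP3K14, ADAM17, EDARADD, DAXX and TRAF3IP2 (0.1093 to 0.4263). Without Liq replicate 2 those of ADAM17, DAXX and TRAF3IP2 were lost (0.05212 to 0.0887).

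**Figure D4:**
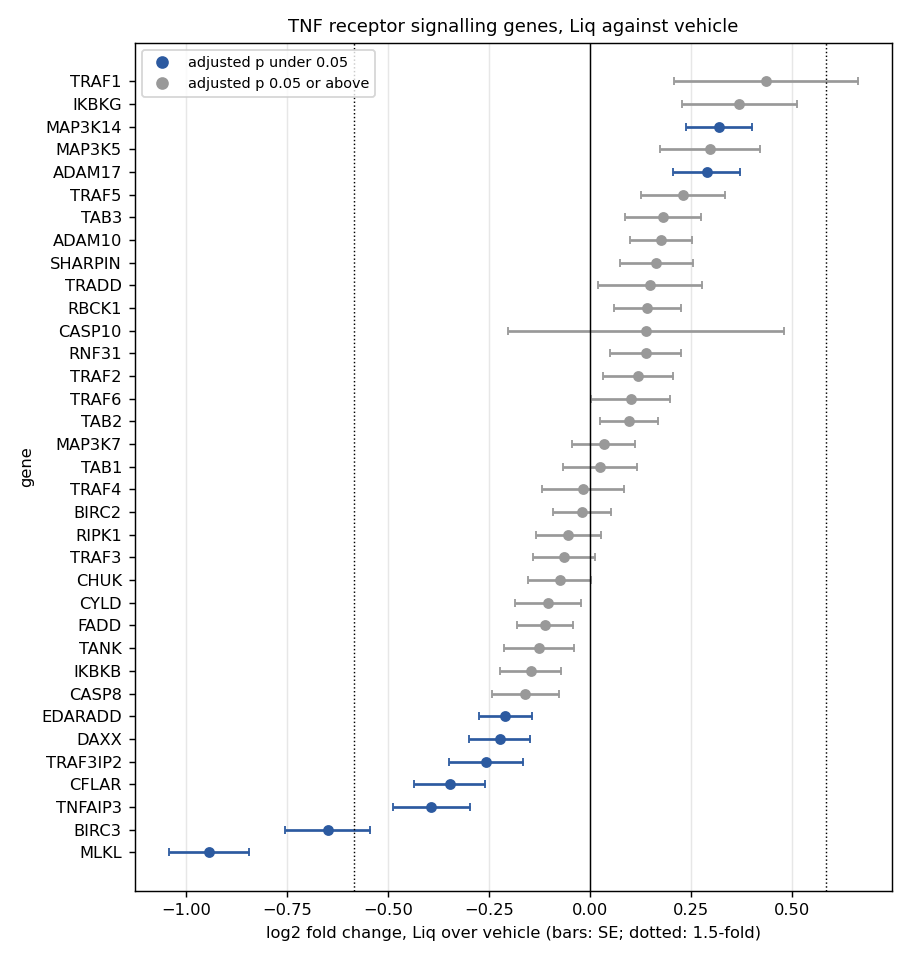
Log2 fold change of Liq over vehicle for the 35 tested genes of TNF receptor signaling, with bars of 1 SE on each side, a solid line at 0 and dotted lines at 1.5-fold. The 9 genes in blue had an adjusted p-value under 0.05, and MLKL and BIRC3 lay beyond the lower dotted line.

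Because the study asks about NF-κB, the promoter windows of the family were searched for the κB motif in a broad form, in which both middle bases may be any base. The windows run from 250 bases before to 50 bases after each start in RefSeq (GRCh38.p14). Windows were found for 28 of the 45 genes, and those of NGFR, TNFRSF10D and TNFRSF12A were not among them. On either strand, 12 of the 37 windows of the family held a match, belonging to 10 genes, beside 11.3% of all 35116 windows. The genes were FAS, LTA, LTB, TNFRSF9, TNFRSF14, TNFRSF19, TNFRSF25, TNFSF11, TNFSF13 and TNFSF14. Of these only TNFRSF19 was past the test, and its match lay 171 bases before the downstream of its 2 starts. No window of the family held the palindromic estrogen response element GGTCANNNTGACC, which 0.057% of all windows held. The 250 bases before the start, placed on GRCh37 by exact match, are shown for TNFRSF19 at chr13:24153249-24153498 (plus strand), for TNFRSF1A, the receptor that rose, at chr12:6451243-6451492 (minus strand), and for TNFSF15, the ligand that fell most, at chr9:117554811-117555060 (minus strand). The windows of TNFRSF19 and TNFSF15 lie inside their genes as GENCODE annotates them, and that of TNFRSF1A overlaps its gene in part. Each runs 5′ to 3′, and capitals mark the κB match.
TNFRSF19: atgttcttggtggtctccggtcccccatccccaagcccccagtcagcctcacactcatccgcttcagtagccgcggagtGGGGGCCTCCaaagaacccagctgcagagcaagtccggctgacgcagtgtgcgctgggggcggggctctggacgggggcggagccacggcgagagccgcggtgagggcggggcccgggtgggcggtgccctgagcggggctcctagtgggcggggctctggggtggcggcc
TNFRSF1A: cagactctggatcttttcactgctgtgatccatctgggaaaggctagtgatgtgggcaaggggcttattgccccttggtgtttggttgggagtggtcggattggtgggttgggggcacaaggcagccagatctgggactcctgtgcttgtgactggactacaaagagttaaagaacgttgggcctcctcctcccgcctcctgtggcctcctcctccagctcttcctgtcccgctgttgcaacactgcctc
TNFSF15: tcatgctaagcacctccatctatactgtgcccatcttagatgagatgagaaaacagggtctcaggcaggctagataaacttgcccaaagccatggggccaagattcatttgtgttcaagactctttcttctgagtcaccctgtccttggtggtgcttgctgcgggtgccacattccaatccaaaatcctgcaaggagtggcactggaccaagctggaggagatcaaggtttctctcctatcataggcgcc
The windows of TNFRSF1A and TNFSF15 hold no match in these letters. The only windows found for TNFSF15 and TNFSF4 lie inside their genes, so the 5′ ends that GENCODE annotates for them were not searched. A match is a description of the sequence only.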

How the data were processed

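Libraries made from total RNA of 4 ES2 samples (2 vehicle and 2 Liq, 24 h) were sequenced as single-end reads. Per the labels, the authors aligned reads to hg19 (GRCh37) with TopHat2 2.0.8b, and they deposited raw counts per gene symbol from HTSeq, 1 table per sample, neither normalized nor pooled. The annotation, the counting mode and the strand setting are not given in the sources used here. HTSeq's 5 tally rows (44.4% to 45.9% of all reads) were left out of library sizes and tests.

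Groups and replicate numbers came from the sample titles. Genes were filtered with filterByExpr (minimum count 10, minimum total 15), leaving 13546 of 23228. They were scaled by TMM and tested with glmQLFit and glmQLFTest in edgeR 4.0.16 (R 4.3.3) without a replicate block. The Benjamini-Hochberg adjustment ran over all tested genes. The SE is the log2 fold change divided by the square root of F, and 95% intervals are normal intervals from it. RPKM used canonical transcript lengths of GENCODE v44 mapped to GRCh37 (for FAS, the principal isoform). Coordinates came from the same annotation and the promoter sequences from RefSeq.

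Members and lists were chosen with earlier results of these data known. Every tested member is named. Signaling genes are named when past the test and at least 1.5-fold changed, and as the up to 3 smallest p-values per list and direction, the former included. DAXX falls outside this rule and was named after its values were seen, as were FADD, RIPK1, RIPK3, CASP8 and BIRC2 for context. Alternatives were other scalings (DESeq2 size factors, upper quartile, loess offsets with span 0.3), no filter, a mean of at least 1 CPM, DESeq2 1.42.0, a replicate block, each sample left out and a 2-fold threshold. On simulated counts the main test recovered 199 of 200 changes among 13438 genes, with 15 false calls. The changes put in were at least 2-fold, in genes above a mean of 1 CPM, with 1 spread for all genes. Apart from TNFSF15, the members past the test changed by less than 2-fold, and TNFSF15 was below 1 CPM. The simulation therefore does not cover their calls. Counting limits (3 counts) cover counting error only.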

Additional observations from a re-analysis of the deposited data

How the results depend on the processing

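The lower calls of NGFR, TNFRSF10D and TNFRSF12A and the higher call of TNFRSF1A held in all 11 alternative fits, and that of TNFSF15 in all 10 that tested it. The calls of FASLG, TNFSF4 and TNFRSF19 were lost in 5, 6 and 3 of 11. Over all genes, 805 were higher and 608 lower without vehicle replicate 1, 866 and 676 without vehicle replicate 2, and 1087 and 1291 with the DESeq2 test, against 1712 and 1533 in the report. With 1 sample left out, the lone sample of a group is assumed to vary like the other group. The causes were not tested.

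Members higher at the adjusted p-value numbered 2 in the report, 1 with DESeq2 size factors, with a mean of at least 1 CPM, with the DESeq2 test and with loess offsets, and 1 to 2 with 1 sample left out. Members lower numbered 6, and 4 to 5 with 1 sample left out. Members at least 1.5-fold lower numbered 2, and 1 with a mean of at least 1 CPM, which leaves out TNFSF15, or with a 2-fold threshold. Members at least 1.5-fold higher numbered 0 to 1 with 1 sample left out, the 1 being TNFSF4 without vehicle replicate 1. The median log2 fold change of the members was 0.0402 in the report, 0.0668 with upper-quartile scaling, -0.0199 with loess offsets and 0.0175 to 0.0831 with 1 sample left out. Signaling genes numbered 0 to 5 higher and 2 to 7 lower with 1 sample left out.

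With the replicate block, 4 members (TNFRSF1A, TNFSF4, FAS and LTBR) and 4 signaling genes were higher, and 2321 genes were higher and 2474 lower overall. Samples with the same number share only that number, and the correlation of their deviations across genes was 0.0483.

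Log2 fold changes near 0 turned sign without passing. With loess offsets these were TNFRSF10A (-0.0212), TNFRSF10C (-0.0185), TNFRSF11B (-0.214) and CASP10 (-0.0927), and with upper-quartile scaling TNFRSF25 (0.00738). With 1 sample left out the range was -0.0182 to 0.0862 for TNFRSF10A, -0.000654 to 0.0269 for TNFRSF10B, -0.12 to 0.54 for TNFRSF10C, -0.138 to 0.234 for TNFRSF11B, -0.139 to 0.104 for TNFRSF25, -0.162 to 0.0241 for TNFSF13, -0.043 to 0.339 for TRADD and -0.194 to 0.348 for CASP10.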
